A study of Mus musculus with 4 samples.

Results

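The cadherin superfamily genes examined here were chosen by name: the numbered cadherins (Cdh followed by digits), the non-clustered protocadherins (Pcdh followed by digits, with or without an x) and Celsr1 to Celsr3. In all, 38 of the 25239 gene IDs in the tables matched, and each stood on 1 row in each library. They were read in whole mouse retina dissected at mid-gestation (E13.5, where E stands for embryonic day), in 2 libraries labelled control and 2 labelled Isl1cKO, a genotype that the series describes as a loss of Isl1, which encodes a LIM-homeodomain transcription factor. The Cre line, the strain and the number of embryos behind a library are not given in the sources used here, so p-values measure the spread between libraries, which may be technical. Levels are in TPM, a measure of transcript abundance that is scaled to transcript length and can be compared between genes. Isl1 itself was listed with 242 and 201 TPM in control replicates 1 and 2, against 321 and 223 TPM in the Isl1cKO-labelled libraries, with overlapping groups. Gene-level TPM cannot show the loss of part of a gene, so the labels could not be checked by the targeted gene, and each direction below is a direction between libraries as labelled.

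Cadherins are calcium-dependent adhesion proteins that hold cells together through repeated extracellular domains. Classical cadherins bind catenins inside the cell, which link them to actin, and are divided into type I and type II by the sequence of the outermost domain. Delta-protocadherins are weaker adhesion molecules of the nervous system. The Celsr proteins are seven-pass receptors with cadherin repeats that act in planar cell polarity and axon growth. In the developing retina Cdh2 (N-cadherin) holds the neuroepithelium together, Cdh4 is also known as retinal cadherin, and several type II cadherins mark neuron types and guide their connections.

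Depth in reads is unknown. From the coverage and FPKM columns it corresponds to 12.6 to 14.3 gigabases of aligned sequence per library, least in Isl1cKO-labelled replicate 2. Fold changes are differences of the mean log2(TPM + 1), Isl1cKO minus control, a scale that understates changes of low genes, and were tested with limma over all 13984 genes that had at least 1 TPM in at least 2 libraries. Adjusted p-values are from the Benjamini-Hochberg method over those genes, with a threshold of 0.05. Of the 38 genes, 25 entered the test, and all 25 were at or above 1 TPM in all 4 libraries. The other 13 are described at the end.

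No cadherin, protocadherin or Celsr gene passed the adjusted threshold. The count was 0 of 25 in limma, beside a background of 0.493% of all genes tested. At an unadjusted p under 0.05 there were 6, which is 24.0% of 25 beside 12.1% of all genes tested. Of these 6, 4 were lower in the Isl1cKO-labelled libraries (Cdh20, Pcdh10, Cdh22 and Cdh10, beside a background of 8.92% lower) and 2 were higher (Cdh4 and Pcdh18, beside 3.20%). The number 6 rests on few libraries and changed with a library left out, and the share of all genes was not computed for those fits. With a library left out, log2 fold changes ran from -0.74 to -0.40 for Cdh20 and from -0.94 to -0.39 for Cdh22. They ran from -0.71 to -0.37 for Pcdh10 and from -0.39 to -0.28 for Cdh10. For Cdh4 they ran from 0.19 to 0.30, and for Pcdh18 from 0.19 to 0.32. No gene had an absolute log2 fold change of 1 or more, as 1.64% of all genes tested did. The median log2 fold change of the 25 was -0.07, and that of all genes tested was -0.05. The values of the 2 groups did not overlap for 11 of the 25 genes (44.0%), close to the 44.9% over all genes tested.

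The summed level of the 38 genes hardly differed between libraries. It was 735 and 717 TPM in control replicates 1 and 2, and 744 and 714 TPM in the Isl1cKO-labelled libraries. Cdh11, Cdh2 and Cdh4 together made up 62.4% and 62.8% of that sum in the controls and 63.5% and 67.4% in the Isl1cKO-labelled libraries. In order of mean TPM over the 4 libraries they were followed by Celsr2, Cdh24, Celsr3, Pcdh19, Cdh20, Pcdh18 and Pcdh7. From Cdh24 to Pcdh18 each neighbour in this order overlapped the next in its range over libraries, as did Cdh11 and Cdh2, while the ranges of Cdh2, Cdh4 and Celsr2 were apart. The plot of levels by library shows this order and the narrow spread of most genes.

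**Figure D1:**
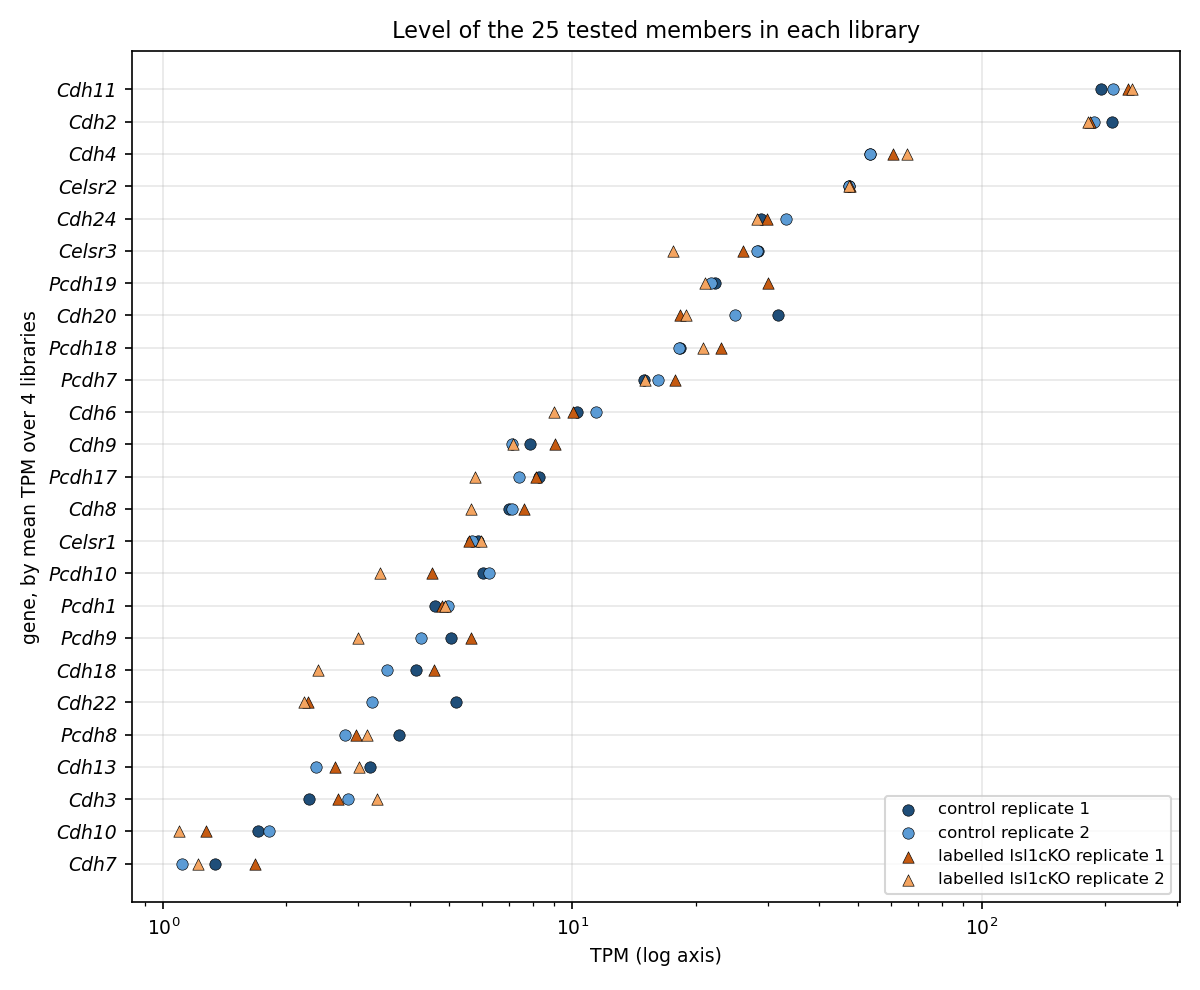
TPM on a log axis of the 25 tested genes, 1 row per gene in order of mean level, with circles for the 2 control libraries and triangles for the 2 libraries labelled Isl1cKO. Cdh11 and Cdh2 stand between 182 and 233 TPM, and the lowest tested gene, Cdh7, lies between 1.11 and 1.68 TPM.

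Among the type I classical cadherins, Cdh2 (chromosome 18, 16588877 to 16809246, minus strand) was measured at 209 and 188 TPM in control, against 184 and 182 TPM in the Isl1cKO-labelled libraries. The log2 fold change was -0.11 (SE 0.09, 95% interval -0.36 to 0.13; limma, adjusted p = 0.701). The gap between control replicate 2 and the Isl1cKO-labelled libraries was smaller than that between the controls, and with a library left out the log2 fold change ran from -0.19 to -0.04.

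Cdh4 (chromosome 2, 179442431 to 179899375, plus strand) was measured at 53.3 and 53.4 TPM in control, against 60.9 and 65.8 TPM in the Isl1cKO-labelled libraries. Both labelled Isl1cKO libraries lay above both controls, which differed little from each other. The means were 53.4 ± 0.0574 and 63.3 ± 3.52 TPM (SD, n = 2 each), and the log2 fold change of 0.24 (SE 0.08) had an unadjusted p of 0.0404 (limma, adjusted p = 0.383). Cdh3 (P-cadherin), known from the pigment epithelium, stood at 2.27 and 2.83 TPM in control, against 2.68 and 3.33 TPM in the Isl1cKO-labelled libraries, with overlapping groups. A list of 10 pigment epithelium genes summed to 74.6 and 66.2 TPM in control, against 66.4 and 61.2 TPM in the Isl1cKO-labelled libraries. Rpe65 was at 0 in all 4. Of the 8 tested genes of that list 6 were lower and 2 higher, beside 8916 lower and 5068 higher of all 13984 genes tested. Trpm1 was 1 of the 2 higher, at 28.3 and 27.1 TPM in control, against 29.0 and 33.1 TPM. The part of such cells in the level of Cdh3 was not tested.

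Cdh11 (chromosome 8, 102632095 to 102785111, minus strand), a type II cadherin known from mesenchyme and bone, was at the level of Cdh2 in these retinas. It stood at 196 and 209 TPM in control, against 228 and 233 TPM in the Isl1cKO-labelled libraries. The groups did not overlap, but the log2 fold change was 0.19 (SE 0.08, 95% interval -0.03 to 0.41; limma, adjusted p = 0.480). With FPKM, median-ratio scaling or a mean-variance trend Cdh11 had an unadjusted p under 0.05. A list of 10 periocular mesenchyme genes summed to 27.6 and 20.1 TPM in control, against 19.5 and 15.0 TPM in the Isl1cKO-labelled libraries. Of these sums Col1a2 alone made up 11.8 to 18.0 TPM, and only 4 of the 10 genes were tested. No gene of that list was at 0 in any library. The part of such cells in the level of Cdh11 was not tested.

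Ratios within a library do not depend on how libraries are scaled, and the 4 given here were chosen after the values were seen. Cdh11 over Cdh2 was 0.940 and 1.11 in the controls and 1.24 and 1.28 in the Isl1cKO-labelled libraries, so that Cdh11 exceeded Cdh2 in 3 of 4 libraries. Cdh4 over Cdh2 was 0.255 and 0.284 in the controls and 0.330 and 0.362 in the Isl1cKO-labelled libraries. Cdh20 over Cdh4 was 0.597 and 0.468 in the controls and 0.302 and 0.288 in the Isl1cKO-labelled libraries. Groups of 2 against 2 cannot give a two-sided exact permutation p below 0.333, and each of these ratios had that p.

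**Figure D2:**
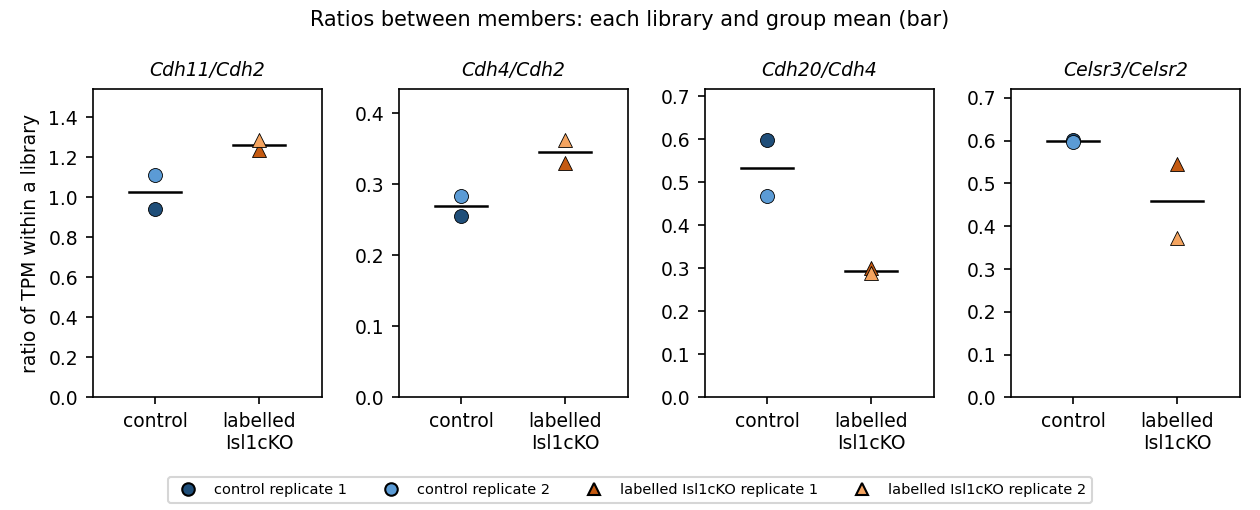
Ratio of TPM between 2 genes of the same library, from 0, with circles for control libraries, triangles for libraries labelled Isl1cKO and a bar at each group mean. Cdh20 over Cdh4 averaged 0.532 in control and 0.295 in the Isl1cKO-labelled libraries, and Celsr3 over Celsr2 was nearly equal in the controls, at 0.600 and 0.596, but 0.546 and 0.372 in the other libraries.

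Of the 10 tested type II cadherins, 3 had an unadjusted p under 0.05, all lower in the Isl1cKO-labelled libraries (beside 8.92% lower of all genes tested), and none passed the adjusted threshold. Cdh20 (chromosome 1, 104768520 to 104995481, plus strand) had the lowest unadjusted p of the 25 genes. It stood at 31.9 and 24.98 TPM in control, against 18.4 and 19.0 TPM in the Isl1cKO-labelled libraries. Both control values lay above both others, and the controls differed more from each other than the Isl1cKO-labelled libraries did. The means were 28.4 ± 4.87 and 18.7 ± 0.435 TPM (SD, n = 2 each), or -0.57 as log2 fold change (SE 0.14, 95% interval -0.94 to -0.21), with an unadjusted p of 0.0112 (limma, adjusted p = 0.264).

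Cdh22 (chromosome 2, 165111507 to 165234737, minus strand), a brain cadherin, stood at 5.19 and 3.25 TPM in control, against 2.26 and 2.21 TPM in the Isl1cKO-labelled libraries. It had the most negative log2 fold change of the 25 genes, -0.67 (SE 0.20; limma, adjusted p = 0.327). Control replicate 1 held much of that difference: without it the log2 fold change was -0.39, and without control replicate 2 it was -0.94.

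Cdh10 (chromosome 15, 18818947 to 19014236, plus strand) was measured at 1.70 and 1.81 TPM in control, against 1.27 and 1.10 TPM in the Isl1cKO-labelled libraries, with a log2 fold change of -0.34 (SE 0.09; limma, adjusted p = 0.285). Its listed coverage was only 0.344, 0.346, 0.262 and 0.215 reads per base in the same order. The ratio of that coverage to its FPKM was 3.86% to 3.96% of the usual ratio of the library, so the 2 columns do not describe the same amount of RNA and the TPM of Cdh10 is uncertain. Cdh7 stood at 31.0% to 32.1% of the usual ratio and Pcdh10 at 49.1% to 56.6%. Pcdh15 stood at 53.25% to 54.14%, Cdh8 at 69.75% to 87.11% and Pcdh7 at 78.12% to 80.26%. The TPM of these genes is uncertain to that extent. In each library 69.2% to 69.5% of all expressed rows lay within 1% of the usual ratio.

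The other 6 type II cadherins did not reach an unadjusted p of 0.05. Cdh24 stood at 28.8 and 33.2 TPM in control, against 29.9 and 28.2 TPM in the Isl1cKO-labelled libraries. Cdh6, which marks a subset of direction-selective ganglion cells in the mature retina, stood at 10.3 and 11.4 TPM in control, against 10.01 and 8.996 TPM in the Isl1cKO-labelled libraries. Its groups were apart by less than the spread within either, with a log2 fold change of -0.17 (SE 0.10) that ran from -0.24 to -0.10 with a library left out. Cdh9 stood at 7.88 and 7.10 TPM in control, against 9.06 and 7.18 TPM in the Isl1cKO-labelled libraries, high only in Isl1cKO replicate 1. Cdh8 and Cdh9, which guide the layering of bipolar cell terminals later in development, had log2 fold changes of -0.08 (SE 0.15) and 0.10 (SE 0.13), with overlapping groups. Cdh18 stood at 4.16 and 3.52 TPM in control, against 4.58 and 2.39 TPM in the Isl1cKO-labelled libraries, so that the latter enclosed both controls. Cdh7 had a log2 fold change of 0.13 (SE 0.13).

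Of the 6 atypical cadherins 1 was tested. Cdh13 (T-cadherin), which is anchored in the membrane by lipid and has no cytoplasmic domain, stood at 3.19 and 2.36 TPM in control, against 2.63 and 3.02 TPM in the Isl1cKO-labelled libraries, so that the controls enclosed the others.

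**Figure D3:**
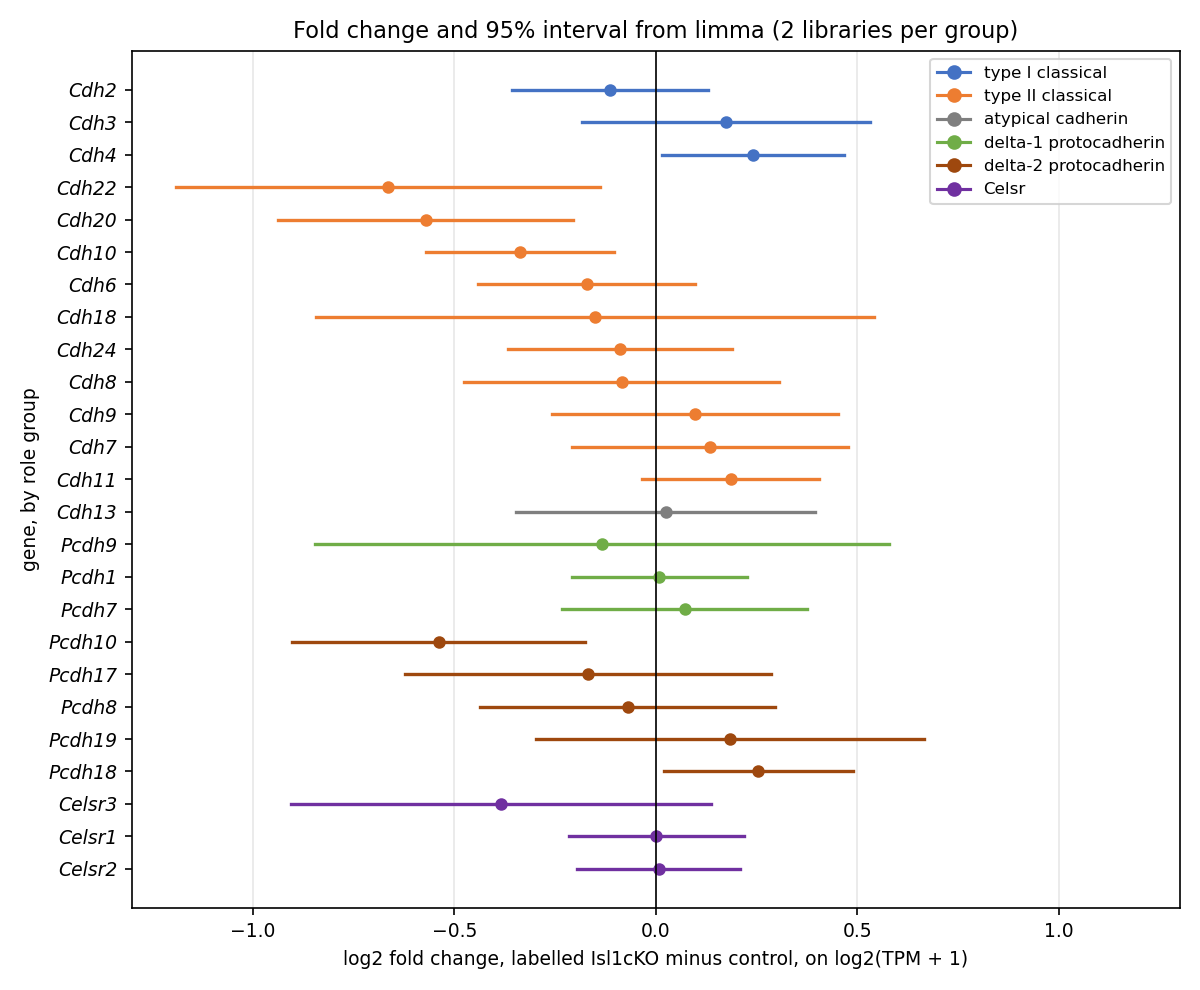
Log2 fold change (dot) and its 95% interval (line) from limma for the 25 tested genes, labelled Isl1cKO minus control on the log2(TPM + 1) scale, coloured by role group. The intervals of Cdh22, Cdh20, Cdh10 and Pcdh10 lie below 0 and those of Cdh4 and Pcdh18 above 0, before any adjustment for the 13984 genes tested.

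All 5 delta-2 protocadherins were tested, and they differed among themselves in direction. Pcdh10 (chromosome 3, 45378398 to 45434579, plus strand), which is known to act in axon growth, stood at 6.06 and 6.27 TPM in control, against 4.54 and 3.39 TPM in the Isl1cKO-labelled libraries. Both labelled Isl1cKO libraries lay below the controls, and replicate 2 was lowest. The ratio of its coverage to its FPKM was below the usual ratio in each library, as given above. The means were 6.16 ± 0.145 and 3.97 ± 0.814 TPM (SD, n = 2 each), and the log2 fold change of -0.54 (SE 0.14) had an unadjusted p of 0.0135 (limma, adjusted p = 0.280).

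Pcdh18 (chromosome 3, 49743296 to 49757316, minus strand) is the next numbered protocadherin on the same chromosome, 4309 kb further on, and its values lay the other way. It stood at 18.3 and 18.2 TPM in control, against 23.1 and 20.9 TPM in the Isl1cKO-labelled libraries, and the log2 fold change was 0.25 (SE 0.09), with an unadjusted p of 0.0391 (limma, adjusted p = 0.380). Pcdh19, an X-linked gene known from an epilepsy syndrome, stood at 22.3 and 21.8 TPM in control, against 29.99 and 21.1 TPM in the Isl1cKO-labelled libraries. Its level was thus high in 1 library only. Pcdh17 stood at 8.29 and 7.40 TPM in control, against 8.14 and 5.77 TPM in the Isl1cKO-labelled libraries, low only in replicate 2. Pcdh8 ranged from 2.78 to 3.78 TPM, with both extremes among the controls.

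**Figure D4:**
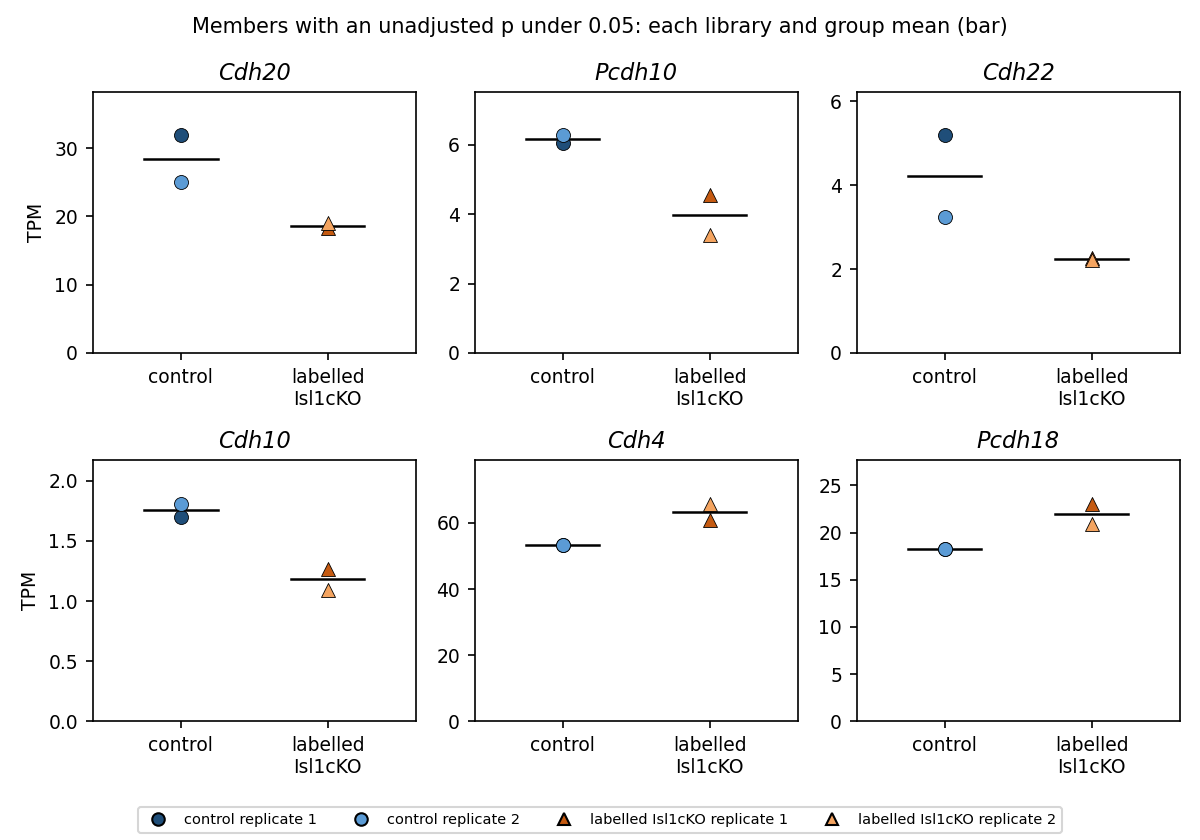
TPM, from 0, of the 6 genes with an unadjusted p under 0.05, with circles for control libraries, triangles for libraries labelled Isl1cKO and a bar at each group mean. In each panel the groups do not overlap: Cdh20, Pcdh10, Cdh22 and Cdh10 are lower and Cdh4 and Pcdh18 higher in the Isl1cKO-labelled libraries, and none of the 6 passed the adjusted threshold. The genes were selected by p from these same values, and the groups did not overlap for 44.9% of all genes tested. The TPM of Cdh10 and Pcdh10 is uncertain, since their coverage and FPKM disagree.

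The 250 bases before the annotated start are shown for 3 genes whose values were lower and for Pcdh18, whose values were higher, because these 4 of the 6 have a RefSeq promoter window (assembly GRCm38.p6, the build of the mm10 coordinates) that begins at the gene's 5′ end in the deposited tables. Capitals mark TAAT, the core motif of homeodomain factors, on either strand, where it reads ATTA. The windows are chr1:104768270-104768519 (plus strand) for Cdh20, chr3:45378148-45378397 (plus strand) for Pcdh10, chr2:165234738-165234987 (minus strand) for Cdh22 and chr3:49757317-49757566 (minus strand) for Pcdh18, each written 5′ to 3′ on the gene's strand.
Cdh20: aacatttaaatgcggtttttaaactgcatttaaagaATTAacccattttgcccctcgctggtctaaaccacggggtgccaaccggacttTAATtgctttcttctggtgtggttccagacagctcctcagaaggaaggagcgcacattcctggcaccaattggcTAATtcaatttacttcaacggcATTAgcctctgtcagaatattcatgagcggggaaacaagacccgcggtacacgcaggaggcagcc
Pcdh10: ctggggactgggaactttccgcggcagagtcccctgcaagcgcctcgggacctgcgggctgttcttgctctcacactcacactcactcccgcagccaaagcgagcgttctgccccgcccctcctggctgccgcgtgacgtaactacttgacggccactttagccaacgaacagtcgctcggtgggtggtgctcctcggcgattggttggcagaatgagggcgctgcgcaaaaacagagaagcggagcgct
Cdh22: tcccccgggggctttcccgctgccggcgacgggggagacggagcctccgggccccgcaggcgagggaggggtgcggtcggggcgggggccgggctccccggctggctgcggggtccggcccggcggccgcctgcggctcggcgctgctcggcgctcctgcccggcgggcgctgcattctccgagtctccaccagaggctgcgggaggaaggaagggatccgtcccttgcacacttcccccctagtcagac
Pcdh18: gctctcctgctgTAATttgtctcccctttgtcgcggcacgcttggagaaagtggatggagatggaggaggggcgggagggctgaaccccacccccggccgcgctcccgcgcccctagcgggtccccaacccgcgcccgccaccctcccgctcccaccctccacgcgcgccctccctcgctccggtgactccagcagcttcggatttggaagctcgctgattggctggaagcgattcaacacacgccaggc
The Cdh20 window holds 4 matches, the Pcdh18 window 1, and the Pcdh10 and Cdh22 windows 0. The 3 genes with lower values thus did not share the motif in this window. Of the 38 genes, 24 were in the promoter table and 23 had a window at their 5′ end. TAAT was found in 12 of these 23 windows (52.2%), beside 54.9% of all 32817 windows of that length. The windows of the 23 genes had a median GC content of 58.4% and all windows 52.4%, and the shares were not matched for it. The E-box CANNTG, which reads the same on both strands and is the motif of proneural basic helix-loop-helix factors, was also found in 12 (52.2%), beside 66.2% of all windows, and overlapped a TAAT match in 0 of them. The Cdh20 window held 1 E-box and the other 3 windows shown held 0.

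Of the 3 tested delta-1 protocadherins 0 had an unadjusted p under 0.05, beside 12.1% of all genes tested. Pcdh7 stood at 15.0 and 16.2 TPM in control, against 17.9 and 15.1 TPM in the Isl1cKO-labelled libraries, and Pcdh1 lay between 4.63 and 4.98 TPM in all 4 libraries. The 95% interval for the log2 fold change of Pcdh1 was -0.21 to 0.23. Pcdh9 stood at 5.05 and 4.26 TPM in control, against 5.65 and 2.98 TPM in the Isl1cKO-labelled libraries, with the lower value again in replicate 2. The 95% interval for its log2 fold change was wide, at -0.85 to 0.58.

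The 3 Celsr genes had different levels and different spreads. Celsr2 (chromosome 3, 108390848 to 108415579, minus strand) was measured at 47.4 and 47.5 TPM in control, against 47.8 and 47.5 TPM in the Isl1cKO-labelled libraries. The values spanned less than 1 TPM, and the 95% interval of the log2 fold change, which borrows its width from all genes, was -0.19 to 0.21. Celsr1 lay between 5.59 and 5.97 TPM in the 4 libraries, with overlapping groups. Celsr3 (chromosome 9, 108826045 to 108852969, plus strand), which is needed for the growth of long axon tracts, stood at 28.4 and 28.3 TPM in control, against 26.1 and 17.7 TPM in the Isl1cKO-labelled libraries. Its log2 fold change was -0.38 (SE 0.20; limma, adjusted p = 0.532). Without Isl1cKO replicate 2 it was -0.11, and without Isl1cKO replicate 1 it was -0.65.

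Of the 25 tested genes, 12 (48.0%) had their lowest value in Isl1cKO-labelled replicate 2, close to the 46.2% of all genes tested, so this pattern was shared by the whole table. Without Isl1cKO replicate 1 the median log2 fold change of all genes was -0.08, and without Isl1cKO replicate 2 it was -0.02. Marker lists of several cell types differed between the groups. These lists were chosen with earlier results of these data known, so their counts are descriptive and no test of the lists. A list of 16 retinal ganglion cell genes summed to 3969 and 3389 TPM in control, against 1978 and 1367 TPM in Isl1cKO-labelled replicates 1 and 2. Of its 16 tested genes 15 had an unadjusted p under 0.05, all lower, beside 8.92% lower of all genes tested. The exception was Pou4f2, at 126 and 124 TPM in control, against 135 and 120 TPM in the Isl1cKO-labelled libraries. A list of 10 lens genes summed to 182 and 218 TPM in control, against 10.6 and 8.26 TPM in the Isl1cKO-labelled libraries. Of the 10, 6 were past the adjusted threshold in limma, all lower, beside 0.493% of all genes tested. A list of 10 red blood cell genes summed to 2904 and 4170 TPM in control, against 1419 and 205 TPM in the Isl1cKO-labelled libraries. Genes of tissues other than the neural retina thus also differed between the groups. A list of 9 microglia genes summed to 58.5 and 59.8 TPM in control, against 72.8 and 87.7 TPM in the Isl1cKO-labelled libraries. Of the 9, 4 were higher at an unadjusted p under 0.05, beside 3.20% of all genes tested. A list of 10 retinal progenitor genes summed to 7744 and 7348 TPM in control, against 6532 and 7344 TPM in the Isl1cKO-labelled libraries. However, 6 of the 10 had positive log2 fold changes, beside 5068 of all 13984 genes tested. The median log2 fold change of the 10 was 0.12. The highest genes of that list were Fgf15, Sfrp2 and Ccnd1. Ccnd1, which drives the cell cycle, stood at 1944 and 1498 TPM in control, against 848 and 961 TPM in the Isl1cKO-labelled libraries. Fgf15 was also lower, at 2012 and 1816 TPM in control, against 1521 and 1473 TPM. Sfrp2 lay the other way, at 1577 and 1786.5 TPM in control, against 1928 and 2352 TPM. In whole tissue, fewer cells of a type and less RNA per cell cannot be told apart, and the part of any of these cells in the cadherin values was not tested.

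Partner genes were read from 6 lists with 62 genes in the tables, 48 of them tested. None passed the adjusted threshold in limma, and 5 (10.4%) had an unadjusted p under 0.05, all lower in the Isl1cKO-labelled libraries, a share near the 8.92% lower of all genes tested. The median log2 fold change over the 48 was -0.08. Among the 10 tested catenin genes these were Ctnna2 and Jup. Ctnna2, the alpha-catenin of neurons, stood at 65.0 and 54.99 TPM in control, against 43.4 and 35.5 TPM in the Isl1cKO-labelled libraries, a log2 fold change of -0.59 (SE 0.14; limma, adjusted p = 0.268). Jup (plakoglobin) stood at 21.3 and 19.4 TPM in control, against 14.8 and 12.8 TPM in the Isl1cKO-labelled libraries (limma, adjusted p = 0.212).

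Of the other catenins, 3 that bind classical cadherins directly or through beta-catenin had values near those of the controls. Ctnnb1 (beta-catenin) stood at 847 and 792 TPM in control, against 862 and 857 TPM in the Isl1cKO-labelled libraries. Ctnna1 stood at 216 and 197 TPM in control versus 190 and 188 TPM in the others, and Ctnnd1 (p120-catenin) lay between 84.9 and 94.4 TPM. These 3 were named after their values were seen. Of the 7 tested nectin, afadin and linker genes, 0 had an unadjusted p under 0.05.

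Of the 9 tested processing genes, 1 had an unadjusted p under 0.05. Adam10, the protease that sheds Cdh2 from the cell surface, stood at 146 and 123 TPM in control, against 102 and 89.8 TPM in the Isl1cKO-labelled libraries, with a log2 fold change of -0.49 (SE 0.13; limma, adjusted p = 0.285). Of the 12 planar polarity partners of Celsr, 6 were lower and 6 higher, beside 8916 lower and 5068 higher of all 13984 genes tested. Of the 12, 1 had an unadjusted p under 0.05. This was Vangl1, at 2.42 and 2.58 TPM in control, against 1.44 and 1.89 TPM in the Isl1cKO-labelled libraries. Of the 5 tested Fat and Dachsous genes 0 did. Clstn2 (calsyntenin), a cadherin-superfamily gene outside the naming rule, stood at 2.12 and 2.18 TPM in control, against 1.08 and 1.15 TPM in the Isl1cKO-labelled libraries (limma, adjusted p = 0.106, the lowest p among the partner genes).

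The 38 genes lie on 12 chromosomes, in part far from each other. Chromosome 8 holds 8 of the 38, from Cdh8 to Cdh15 (99024471 to 122867397), and chromosome 15 holds Cdh6, Cdh9, Cdh10, Cdh12 and Cdh18 in that order, with Celsr1 far beyond them. Neighbours differed widely in level. Cdh11 lay next to Cdh5, with 1317 kb between them, and stood at 196 TPM or more in each library while Cdh5 was at 2.55 TPM or less. Cdh3 and Cdh1, 46.4 kb apart, were at 2.27 to 3.33 TPM and at 0.166 to 0.662 TPM.

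The 13 genes below the filter were Cdh1, Cdh5, Cdh12, Cdh15, Cdh16, Cdh17, Cdh19, Cdh23, Cdh26, Pcdh11x, Pcdh12, Pcdh15 and Pcdh20. Cdh16 and Cdh17, known from kidney and from liver and intestine, were listed at 0 in all 4 libraries. Cdh5 (VE-cadherin), the cadherin of endothelium, stood at 2.55 TPM in control replicate 1, at 0.357 TPM in control replicate 2, at 0.211 TPM in Isl1cKO replicate 1 and at 0 in Isl1cKO replicate 2. Its level was thus high in 1 control library. Of a list of 8 endothelial genes 3 were tested, and the list summed to 90.7 and 72.1 TPM in control, against 71.6 and 68.7 TPM in the Isl1cKO-labelled libraries, of which Kdr alone made up 55.5 to 69.0 TPM. Pecam1 stood at 2.45, 0.592, 0.681 and 0.296 TPM with the libraries taken in that order. Tie1 stood at 1.80, 0.336, 0.0959 and 0 TPM, and Emcn at 2.16, 0.383, 0.175 and 0 TPM, which is the order of Cdh5. Egfl7, of the same list, lay the other way, at 7.04, 7.98, 9.002 and 9.38 TPM, with an unadjusted p of 0.0445 (limma, adjusted p = 0.396). The part of endothelial cells in the level of Cdh5 was not tested.

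Pcdh15 and Cdh23, which form the tip links of hair cells together, had values that lay in opposite directions, both below the filter. Pcdh15 stood at 1.33 and 0.651 TPM in control, against 0.615 and 0.155 TPM in the Isl1cKO-labelled libraries. Cdh23 stood at 0.0939 and 0.0622 TPM in control, against 0.868 and 0.254 TPM in the Isl1cKO-labelled libraries. Vsir and Gm17455 lie on the other strand within Cdh23. Vsir stood at 0.855 to 1.44 TPM. Gm17455 stood at 0.363 and 0.0626 TPM in control, against 0.549 and 0.170 TPM in the Isl1cKO-labelled libraries. Whether strand was used when reads were assigned is not given in the sources used here, so the level of Cdh23 is uncertain. Cdh19, known from Schwann cell precursors, stood at 0.222 and 0.144 TPM in control, against 0 and 0.0283 TPM in the Isl1cKO-labelled libraries. In a fit without the filter it was the only one of these genes with an unadjusted p under 0.05 (0.0359, adjusted p-value 0.430 in limma). Sox10, a defining gene of Schwann cell precursors and neural crest, was at 0.358 TPM or less in each library, and the part of such cells in the level of Cdh19 was not tested. Cdh1 (E-cadherin) stood at 0.662 and 0.523 TPM in control, against 0.487 and 0.166 TPM in the Isl1cKO-labelled libraries. Pcdh20 stood at 0.956 and 0.830 TPM in control, against 0.750 and 0.900 TPM in the Isl1cKO-labelled libraries, just under the filter. Cdh12, Cdh15, Cdh26, Pcdh11x and Pcdh12 were each at 0.856 TPM or less in every library.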

How the data were processed

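Per the labels' protocols, poly(A)-selected RNA of dissected retina was sequenced from strand-specific libraries. The submitters' processing notes name Trimmomatic, FastQC, HISAT2, SAMtools, StringTie and DESeq2, without versions or roles, and the build mm10. Per the file headers, each library's deposited table gives per row a gene's coverage per base, its FPKM and its TPM, and the deposited TPM sum to 1000000. None of these columns holds counts, and count models were not used. TPM of repeated rows were summed, and log2(TPM + 1) of the 13984 genes with at least 1 TPM in at least 2 of 4 libraries was fitted with limma 3.58.1 in R 4.3.3, genotype as the only term, with Benjamini-Hochberg adjustment. FPKM served as an alternative and coverage for depth and for the check of its ratio to FPKM. The model was tested on simulated data of 13984 genes: it recovered 64.0% of changes of 1 and 92.0% of changes of 2 on the log2 scale, and also called 17 unchanged genes. The changes were planted only in genes above a set mean level, with spreads drawn from limma's fitted prior. The 2 rates thus do not cover genes of low level, and several of the genes tested here lie below that level. Nor do they cover changes smaller than 1, and the log2 fold changes of the 25 genes ran only from -0.665 to 0.255.

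The genes, their partner lists and the marker lists were chosen with earlier results of these data known. Genes were given per library if they had an unadjusted p under 0.05, a log2 fold change of at least 1, a level among the 12 highest or the highest of their role group, and other genes by their range or where a sentence needed them. Partner genes were named at an unadjusted p under 0.05. Alternatives were other pseudocounts, filters, scalings and priors, FPKM, genes on several rows left out, the replicate block and leaving out each library. Sequences are from RefSeq, and a reference table of proteins was not used here. The summed level of a Schwann and neural crest marker list is not reported here.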

Additional observations from a re-analysis of the deposited data

How the results depend on the processing

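The 0 of 25 genes and the 0 of 48 partner genes past the adjusted threshold were 0 under each of 9 alternatives and under each left-out library, where the lone library of a group is assumed to vary like the others. The 69 genes called over the whole table were 44 at a pseudocount of 0.1, 15 without a filter, 127 with FPKM, 110 with a mean-variance trend and 265 with the replicate block, and 10 to 37 with a library left out. Deviations from the group means correlated at 0.126 between the replicates numbered 1; the labels tie equal numbers to no litter or day, so the libraries were taken to share only a number. With the replicate block, 4 of the 25 genes had an unadjusted p under 0.05 in place of 6, all lower, and Cdh4 and Pcdh18 no longer did. With the filter at 5 TPM, 17 genes were tested and 4 had an unadjusted p under 0.05, since Cdh22 and Cdh10 fell below that filter. The share of all genes at an unadjusted p under 0.05 was not computed for any of the alternatives. Cdh11 came in with FPKM, with the trend and with median-ratio scaling, and Cdh7 came in with quantile normalization. With the trend Cdh10 was tested but no longer had an unadjusted p under 0.05. With FPKM the filter was applied to FPKM, so that Cdh10 and Cdh7 fell below it and only 23 of the 25 genes were tested. With a library left out the count ran from 2 to 9. Apart from genes that fell below a filter, the cause of these changes was not tested.

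Cdh20, Pcdh10, Cdh22, Cdh10, Cdh4 and Pcdh18 kept their sign in every fit that held them. Quantile normalization turned 3 signs: Cdh8 became 0.0533, Pcdh9 0.0073 and Pcdh8 0.0804. With a library left out, signs turned for genes with a fold change near 0 or a wide spread. The ranges were -0.187 to 0.0102 for Cdh24, -0.0609 to 0.428 for Pcdh19, -0.0435 to 0.188 for Pcdh7, -0.0528 to 0.247 for Cdh9 and -0.385 to 0.0483 for Pcdh17. They were -0.272 to 0.102 for Cdh8, -0.0392 to 0.0410 for Celsr1, -0.0345 to 0.0526 for Pcdh1, -0.503 to 0.237 for Pcdh9 and -0.509 to 0.209 for Cdh18. They were -0.237 to 0.0989 for Pcdh8, -0.135 to 0.184 for Cdh13 and -0.0018 to 0.269 for Cdh7. Against the main fit, log2 fold changes shifted by a median over genes of 0.0543 with median-ratio scaling and 0.0714 with quantile normalization. No detection limit is given for genes listed at 0, since read depth is unknown.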
